A study of Homo sapiens with 12 samples.

Results

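The 8 genes described here carry MHC class I antigen presentation in human cells: the heavy chain genes HLA-B, HLA-C and HLA-E, the light chain gene B2M, the peptide transporter genes TAP1 and TAP2, the loading chaperone gene TAPBP and the transactivator gene NLRC5. They were taken by gene name, 1 row each, from tables of 58735 genes. They were read in HEK293T cells, an established line from human embryonic kidney in which SV40 large T antigen keeps plasmids replicating. VGLL2-NCOA2, TEAD1-NCOA2 or YAP5SA was expressed from a plasmid by transient transfection, the vector pcDNA3.1 alone served as control, and RNA was sequenced from 3 libraries of each of the 4 groups. VGLL2-NCOA2 and TEAD1-NCOA2 are fusion proteins of rhabdomyosarcoma that join a cofactor of TEAD transcription factors, or a TEAD factor itself, to part of the nuclear receptor coactivator NCOA2. YAP5SA is a form of YAP, the effector of the Hippo pathway, whose inhibitory phosphorylation sites were changed to alanine. All groups share the cell line and the medium. The libraries average transfected and untransfected cells, and the share of transfected cells was not stated. The comparisons ask how each protein changes the transcripts of these genes relative to pcDNA3.1, and how the 3 proteins differ from each other.

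A class I molecule is a heavy chain paired with the light chain B2M, and it shows a short peptide from inside the cell to CD8 T cells. Peptides made by the proteasome are pumped into the endoplasmic reticulum by a transporter of TAP1 and TAP2, and tapasin, the product of TAPBP, holds empty class I molecules at that transporter until a peptide fits. HLA-B and HLA-C are classical heavy chains, whereas HLA-E presents signal peptides of other heavy chains to receptors of natural killer cells. NLRC5 is the main transactivator of class I genes and acts through the conserved SXY module of their promoters, and interferon acts through separate interferon response elements.

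Promoters are shown for the genes on which the results turn, so that the elements of the heavy and light chains can be set beside those of TAP2. RefSeq held promoter windows for 6 of the 8 genes on GRCh38.p14, from 250 bases before the transcript start to 50 after it. HLA-E and NLRC5 were not in that table. Capitals mark 5 motifs searched on both strands: CCAAT (the Y box), TGACG (the core of the X2 and CRE elements), GGGGA and TCCC parted by 1 base (the NF-kB site of class I enhancer A), GAAA and GAAA parted by 2 bases (the repeat of interferon response elements) and GGAATG (a TEAD site). The windows are HLA-B at chr6:31357130-31357429 (minus strand), HLA-C at chr6:31272043-31272342 (minus strand), B2M at chr15:44711267-44711566 (plus strand) and TAP2 at chr6:32838690-32838989 (minus strand).
HLA-B: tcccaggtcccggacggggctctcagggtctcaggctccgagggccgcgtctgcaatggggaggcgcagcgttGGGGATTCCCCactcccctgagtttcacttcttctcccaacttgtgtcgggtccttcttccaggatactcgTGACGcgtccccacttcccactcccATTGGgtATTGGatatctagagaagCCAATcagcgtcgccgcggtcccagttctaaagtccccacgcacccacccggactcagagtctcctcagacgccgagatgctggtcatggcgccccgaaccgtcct
HLA-C: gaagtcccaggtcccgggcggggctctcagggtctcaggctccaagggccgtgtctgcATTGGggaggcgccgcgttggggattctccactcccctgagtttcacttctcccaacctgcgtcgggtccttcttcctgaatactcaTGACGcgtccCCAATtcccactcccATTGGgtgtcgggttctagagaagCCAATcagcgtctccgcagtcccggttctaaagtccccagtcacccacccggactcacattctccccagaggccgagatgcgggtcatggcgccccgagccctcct
B2M: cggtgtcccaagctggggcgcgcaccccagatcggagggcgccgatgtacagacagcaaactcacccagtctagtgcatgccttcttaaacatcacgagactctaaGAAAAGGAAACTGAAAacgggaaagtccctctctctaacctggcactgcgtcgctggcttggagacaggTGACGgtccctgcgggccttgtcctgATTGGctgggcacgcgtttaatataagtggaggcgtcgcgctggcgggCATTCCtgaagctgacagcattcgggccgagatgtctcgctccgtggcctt
TAP2: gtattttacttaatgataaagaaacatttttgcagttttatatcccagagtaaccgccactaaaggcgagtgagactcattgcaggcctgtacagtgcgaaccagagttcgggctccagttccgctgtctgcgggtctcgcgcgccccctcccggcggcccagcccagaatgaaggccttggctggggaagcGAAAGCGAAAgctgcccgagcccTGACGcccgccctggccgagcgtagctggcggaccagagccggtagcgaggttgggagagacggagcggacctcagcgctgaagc

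With the start counted as 0, HLA-B held TGACG at -106 and CCAAT or its reverse ATTGG at -81, -74 and -56. HLA-C had the same TGACG at -105 and CCAAT in either direction at -192, -95, -80 and -56, and B2M had TGACG at -75 and ATTGG at -49. TAP2 held TGACG at -35 and no CCAAT. Of 35116 promoter windows of the same length, 34.6% held CCAAT and 24.6% TGACG. The NF-kB motif, present in 0.424% of windows, matched HLA-B alone of the 6 genes, where both strands match at -177 and -176 and overlap. The GAAA repeat, present in 3.57% of windows, occurred in TAP2 at -58 and as overlapping matches in B2M at -144 and -138, in TAP1 at -134 and -128 on the reverse strand, and in TAPBP at -20 and -14. The reverse of GGAATG, found in 14.0% of windows, lay across the start of B2M at -1. These matches are letters in a window and describe no binding.

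The transfected genes gave the signal of their plasmids before the class I genes were compared. VGLL2 was at 247 to 269 FPKM (a fragment count scaled by gene length and sequencing depth) in VGLL2-NCOA2 libraries and at 1.13 to 1.70 in control. TEAD1 was at 49.7 to 58.1 in TEAD1-NCOA2 libraries and at 2.91 to 3.46 in control, and YAP1 at 3369 to 5779 in YAP5SA libraries and at 4.28 to 6.39 in control. YAP5SA replicate 3 also listed 54.4 FPKM of VGLL2 and 141 FPKM of NCOA2, which the other YAP5SA libraries list at 0. Within their own groups, that library and control replicate 3 had the lowest mean correlation to the other libraries over all tested genes. The values were 0.915 against 0.947 and 0.949 in the other YAP5SA libraries, and 0.947 against 0.965 and 0.966 in the other control libraries. Values without YAP5SA replicate 3 and control replicate 3 stand beside the genes whose call they change. Low values were whole numbers of fragments in the 9 VGLL2-NCOA2, TEAD1-NCOA2 and control libraries, at 14140996 to 15559838 fragments, whereas the YAP5SA values are not whole fragments, so the depth of those libraries is unknown and how their table was made and scaled is not given. The YAP5SA libraries listed 31058 genes above 0 on average, against 22391 in control, and the part of this in the YAP5SA differences was not tested. The FPKM values of a library summed to 256150 to 261017 with VGLL2-NCOA2, 253219 to 303968 with TEAD1-NCOA2, 190861 to 252240 with YAP5SA and 352968 to 450095 in control. Each difference below is in log2(FPKM + 1) units and carries limma's standard error after the ± sign, with Benjamini-Hochberg adjusted p-values over the 15954 genes that reached 1 FPKM in 3 or more libraries. A gene is said to rise or fall where its adjusted p was under 0.05, and to be called where its log2 difference was also over 1 in either direction. 7 of the 8 genes were tested. NLRC5 did not reach 1 FPKM in any library.

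The heavy chain genes were lower than in control with all 3 proteins, and of the 7 tested genes HLA-B had the widest range of differences over the proteins. HLA-B (ENSG00000234745, GRCh38 chromosome 6, 31269491 to 31357188, minus strand) had 42.0, 39.7 and 37.7 FPKM in VGLL2-NCOA2 libraries, 26.6, 32.2 and 30.6 in TEAD1-NCOA2 libraries, 23.6, 22.7 and 13.8 in YAP5SA libraries and 59.9, 74.0 and 57.8 in control. The 4 groups did not overlap, with YAP5SA lowest, then TEAD1-NCOA2, VGLL2-NCOA2 and control. Its mean fell by 37.7% with VGLL2-NCOA2 (-0.66 ± 0.18, limma adjusted p = 0.00986). With TEAD1-NCOA2 the mean fell by 53.4% (-1.07 ± 0.18, limma adjusted p = 0.000714), and with YAP5SA it fell by 68.6% (-1.65 ± 0.18, limma adjusted p = 2.30e-05). The drops with TEAD1-NCOA2 and YAP5SA were called. Without YAP5SA replicate 3 the difference with YAP5SA was -1.42, and without control replicate 3 that with TEAD1-NCOA2 was -1.14. The call with TEAD1-NCOA2, though not the fall, ended without TEAD1-NCOA2 replicate 1 (-0.995) or control replicate 2 (-0.96), with quantile normalization (-0.64), with the length trend (-0.72) or the length and GC trends (-0.52) removed, on the median-of-ratios (-0.95) and TPM (-0.57) scales and by limma-voom (-0.83). In the 9 libraries with whole fragments, the lowest HLA-B value rested on 1270.0 fragments.

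**Figure D1:**
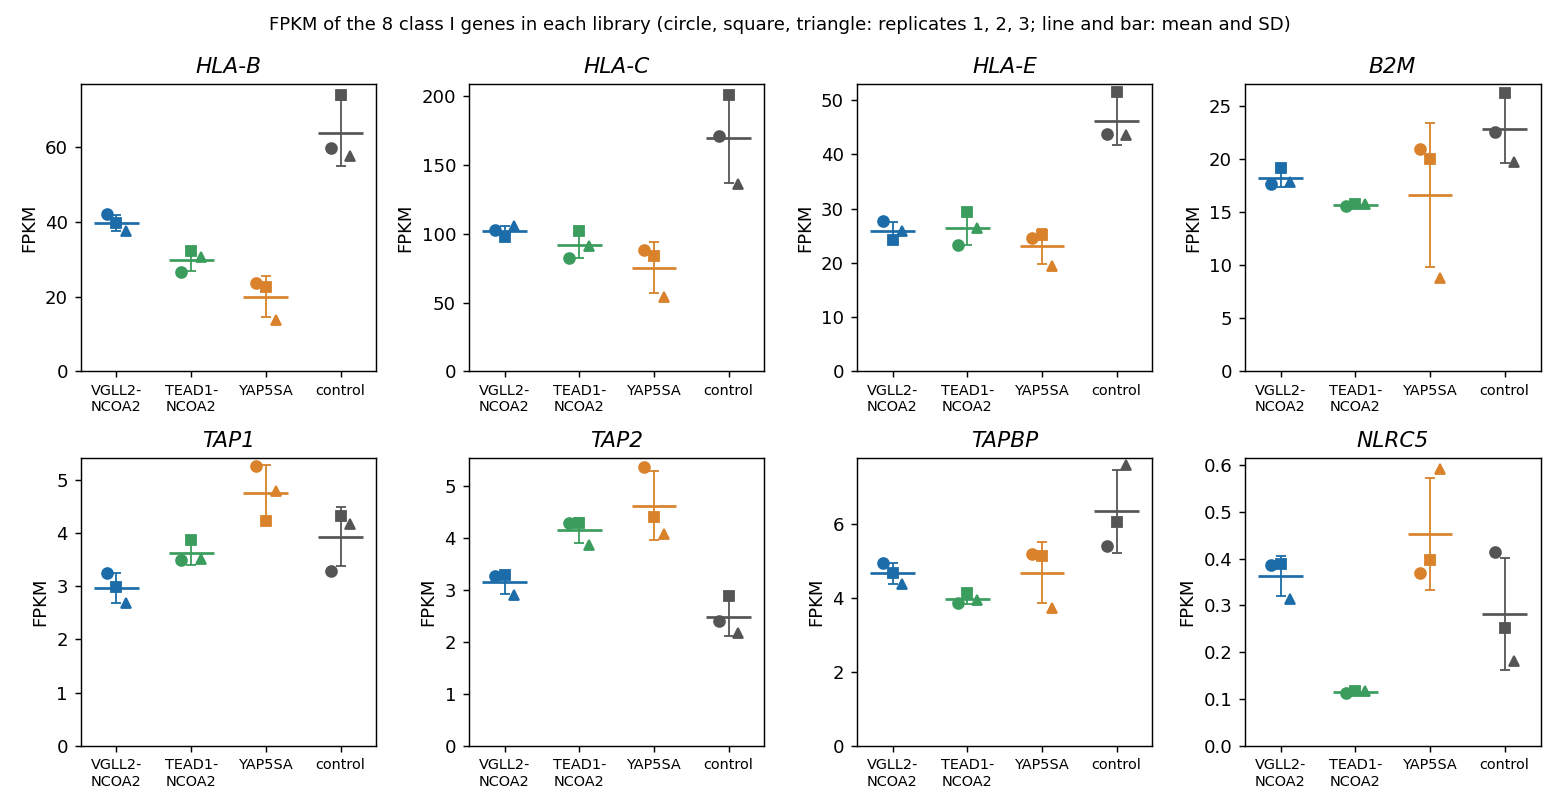
FPKM of the 8 class I genes (vertical axes, each from 0) in the 12 libraries, by group (horizontal axes), with 1 symbol per library and the mean and SD of each group. HLA-B, HLA-C and HLA-E lie lower in every VGLL2-NCOA2, TEAD1-NCOA2 and YAP5SA library than in any control library, whereas TAP2 lies higher in every one of them. The single low B2M value of 8.82 FPKM is YAP5SA replicate 3.

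HLA-C (ENSG00000204525, chromosome 6, 31268749 to 31272130, minus strand), the most abundant of the 8 genes, had 103, 97.6 and 105 FPKM with VGLL2-NCOA2, 82.6, 102 and 90.9 with TEAD1-NCOA2, 88.3, 84.0 and 53.9 with YAP5SA and 171, 201 and 136 in control. The control libraries lay above all others, while the values of the VGLL2-NCOA2 and TEAD1-NCOA2 libraries and those of TEAD1-NCOA2 and YAP5SA libraries overlapped. HLA-C fell with VGLL2-NCOA2 (-0.71 ± 0.19, limma adjusted p = 0.00999), TEAD1-NCOA2 (-0.86 ± 0.19, 0.00395) and YAP5SA (-1.17 ± 0.19, 0.000377), and was called only with YAP5SA, where the difference was -0.95 and no longer called without YAP5SA replicate 3. Without control replicate 3 it was also called with TEAD1-NCOA2 (-1.01). HLA-E (ENSG00000204592, chromosome 6, 30489467 to 30494205, plus strand) had 27.6, 24.3 and 25.9 FPKM with VGLL2-NCOA2, 23.3, 29.3 and 26.4 with TEAD1-NCOA2, 24.6, 25.1 and 19.4 with YAP5SA and 43.6, 51.4 and 43.5 in control. Control was again above every other library, and the 3 proteins gave overlapping values. HLA-E fell with VGLL2-NCOA2 (-0.81 ± 0.12, limma adjusted p = 0.000317), TEAD1-NCOA2 (-0.79 ± 0.12, 0.000449) and YAP5SA (-0.98 ± 0.12, 5.89e-05), and was not called. With YAP5SA it was called without control replicate 1 or 3, without YAP5SA replicate 1 or 2 and with a pseudocount of 0.1 (-1.04 to -1.01).

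B2M, the light chain of every class I heavy chain, showed smaller differences that did not pass the test. B2M (ENSG00000166710, chromosome 15, 44711487 to 44718877, plus strand) had 17.7, 19.2 and 17.9 FPKM with VGLL2-NCOA2, 15.6, 15.8 and 15.8 with TEAD1-NCOA2, 21.0, 20.05 and 8.82 with YAP5SA and 22.6, 26.2 and 19.7 in control. The VGLL2-NCOA2 and TEAD1-NCOA2 libraries were all below control, but 2 of the YAP5SA libraries lay within the range of control. The difference was -0.30 ± 0.25 with VGLL2-NCOA2 (limma adjusted p = 0.332), -0.50 ± 0.25 with TEAD1-NCOA2 (0.120) and -0.52 ± 0.25 with YAP5SA (0.0936). The standard error of B2M, which all groups share, includes YAP5SA replicate 3, and in the fit without that library and control replicate 3 B2M passed with VGLL2-NCOA2 (-0.40, limma adjusted p = 0.000932), TEAD1-NCOA2 (-0.60, 9.47e-05) and YAP5SA (-0.24, 0.0236). The level of B2M cannot be set against the heavy chains in absolute terms, because its FPKM was divided by 6079 bases of joined exons while its longest annotated transcript has 2403 bases.

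The transporter genes parted from the heavy chains. TAP2 (ENSG00000204267, chromosome 6, 32821833 to 32838780, minus strand) had 3.26, 3.28 and 2.89 FPKM with VGLL2-NCOA2, 4.27, 4.29 and 3.86 with TEAD1-NCOA2, 5.37, 4.40 and 4.08 with YAP5SA and 2.40, 2.89 and 2.16 in control. Every library of the 3 proteins was above the highest control library, VGLL2-NCOA2 replicate 3 by the narrowest margin. TAP2 rose with TEAD1-NCOA2 (0.57 ± 0.11, limma adjusted p = 0.00134), by 66.9% of the control mean, and with YAP5SA (0.69 ± 0.11, limma adjusted p = 0.000224), by 86.1%. The difference with VGLL2-NCOA2 was 0.26 ± 0.11 (limma adjusted p = 0.0610). It passed by limma-voom on fragments (0.63, 0.000872), where the median of all genes was 0.31. In all, it passed in 5 of 18 settings, the main fit included in the 18. TAP1 (ENSG00000168394, chromosome 6, 32845209 to 32853978, minus strand), the partner of TAP2 in the transporter, had 3.25, 2.98 and 2.69 FPKM with VGLL2-NCOA2, 3.49, 3.86 and 3.51 with TEAD1-NCOA2, 5.27, 4.23 and 4.79 with YAP5SA and 3.29, 4.32 and 4.17 in control. Its values overlapped those of control with TEAD1-NCOA2 and with YAP5SA, whereas the VGLL2-NCOA2 libraries were all lower than control. TAP1 fell with VGLL2-NCOA2 (-0.31 ± 0.10, limma adjusted p = 0.0276), but did not pass without VGLL2-NCOA2 replicate 2 or 3 or control replicate 2 or 3 (limma adjusted p = 0.0634, 0.101, 0.0986 and 0.0708), and the difference was -0.09 ± 0.10 with TEAD1-NCOA2 (0.505) and 0.23 ± 0.10 with YAP5SA (0.0766). TAP2 shares 2064 exon bases, 32.3% of its exons, with the gene AL669918.1 on the same strand, and fragments of the 2 genes cannot be told apart there.

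The chaperone gene TAPBP was lower with all 3 proteins, by less than the heavy chains. TAPBP (ENSG00000231925, chromosome 6, 33299694 to 33314387, minus strand) had 4.95, 4.69 and 4.38 FPKM with VGLL2-NCOA2, 3.86, 4.12 and 3.95 with TEAD1-NCOA2, 5.19, 5.14 and 3.73 with YAP5SA and 5.39, 6.05 and 7.59 in control, with no overlap with control in any group. It fell with VGLL2-NCOA2 (-0.36 ± 0.13, limma adjusted p = 0.0319), TEAD1-NCOA2 (-0.55 ± 0.13, 0.00453) and YAP5SA (-0.37 ± 0.13, 0.0248). With VGLL2-NCOA2 it did not pass without VGLL2-NCOA2 replicate 2 or 3 or control replicate 2 or 3 (limma adjusted p = 0.0706, 0.0969, 0.0552 and 0.104), and with YAP5SA it did not pass without YAP5SA replicate 3 or control replicate 3 (0.0875 and 0.0847). NLRC5 (ENSG00000140853, chromosome 16, 56989485 to 57083531, plus strand), the transactivator, was the least abundant gene, at 0.387, 0.389 and 0.314 FPKM with VGLL2-NCOA2, 0.114, 0.118 and 0.116 with TEAD1-NCOA2, 0.370, 0.397 and 0.591 with YAP5SA and 0.414, 0.251 and 0.181 in control. The TEAD1-NCOA2 libraries were below all others, at 22 to 24 fragments each, against 30 to 69 in control, and VGLL2-NCOA2 and YAP5SA overlapped with control. Its mean with TEAD1-NCOA2 differed from control by -58.9%, with an exact permutation p of 0.1. With no filter on low values, NLRC5 differed by -0.20 between TEAD1-NCOA2 and control (limma adjusted p = 0.163 over 38153 genes) and was lower with TEAD1-NCOA2 than with YAP5SA (-0.38, 0.0110).

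**Figure D2:**
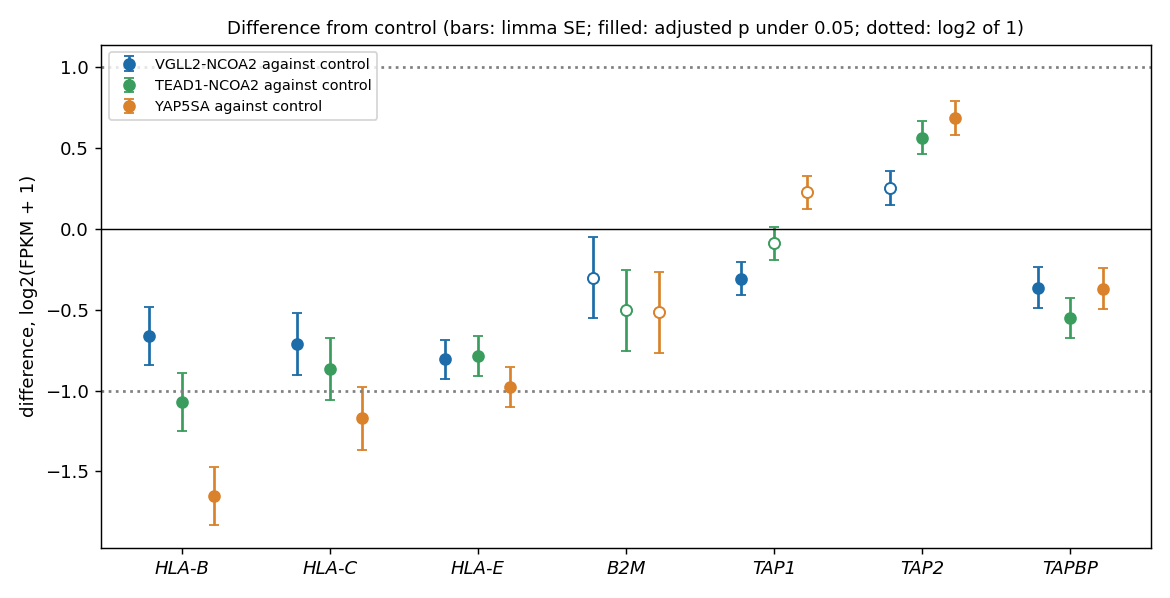
Differences from control on the log2(FPKM + 1) scale (vertical axis) of the 7 tested genes (horizontal axis) for VGLL2-NCOA2, TEAD1-NCOA2 and YAP5SA, with limma standard errors as bars and filled points for an adjusted p under 0.05. HLA-B steps down over the 3 proteins, at -0.66, -1.07 and -1.65, HLA-E stays between -0.79 and -0.98, and TAP2 lies above 0.

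Counted over the 7 tested genes, 5 fell and 0 rose with VGLL2-NCOA2, where 25.0% of all tested genes fell and 28.9% rose. None of the 7 was called by limma, against 11.3% of all genes (6.30% higher and 5.03% lower), with 6 at an unadjusted p under 0.05, and none was called by limma-voom on the recovered fragments, by which 4 had an adjusted p under 0.05 and 23.8% of all genes were called (median difference of all genes 0.31). With TEAD1-NCOA2, 4 fell and 1 rose (27.9% and 20.6% of all genes), and HLA-B was the 1 gene called (9.40% of all genes, 2.89% higher and 6.51% lower). With YAP5SA, 4 fell and 1 rose (30.2% and 32.9%), and HLA-B and HLA-C were called (20.5% of all genes, 10.4% higher and 10.0% lower). The median difference of the 7 genes was -0.36, -0.55 and -0.52 with VGLL2-NCOA2, TEAD1-NCOA2 and YAP5SA, where the median of all genes was 0.01, -0.09 and 0.03. The 3 comparisons share the control libraries. Groups did not overlap, with the protein lower, for 6, 5 and 4 of the 7 genes, where 30.7%, 34.8% and 30.5% of all genes behaved so, and with the protein higher for TAP2 in each comparison (32.5%, 24.9% and 33.5% of all genes). The 2-sided exact permutation test on mean FPKM gave p = 0.1 for each of these, the smallest that 3 libraries against 3 allow.

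The proteins were also compared directly. HLA-B was higher with VGLL2-NCOA2 than with YAP5SA (0.99 ± 0.18, limma adjusted p = 0.00210) and higher with TEAD1-NCOA2 than with YAP5SA (0.58 ± 0.18, 0.0253), which did not pass without TEAD1-NCOA2 replicate 2 or 3 (0.0842 and 0.0727). Between VGLL2-NCOA2 and TEAD1-NCOA2 it differed by 0.41 ± 0.18 (limma adjusted p = 0.136, 95% interval 0.01 to 0.81). TAP1 was lower with VGLL2-NCOA2 than with YAP5SA (-0.54 ± 0.10, limma adjusted p = 0.00309), as was TAP2 (-0.43 ± 0.11, 0.0103). TAP1 was also lower with TEAD1-NCOA2 than with YAP5SA (-0.32 ± 0.10, limma adjusted p = 0.0325), which did not pass without TEAD1-NCOA2 replicate 1 or 3 or YAP5SA replicate 1 or 3 (0.0878, 0.0940, 0.109 and 0.0635). Of the 7 genes, 1 was higher and 2 were lower with VGLL2-NCOA2 than with YAP5SA (16.0% and 15.3% of all genes), and 1 was higher and 1 lower with TEAD1-NCOA2 than with YAP5SA (14.0% and 26.5%), with 4 and 2 at an unadjusted p under 0.05. None was called by limma in either, where 4.09% of all genes (2.04% higher and 2.06% lower) and 5.90% (1.72% higher and 4.17% lower) were called. Between the fusions limma passed 0 of 7 genes (15.3% of all genes higher and 4.61% lower) and called none (1.97% of all genes, 1.60% higher and 0.370% lower), with HLA-B and TAP2 at an unadjusted p under 0.05, while limma-voom passed 3 and called none, where it called 6.07% of all genes. Groups did not overlap for 3 genes higher and 2 lower with VGLL2-NCOA2 than with TEAD1-NCOA2 (36.5% and 16.5% of all genes), for 2 and 2 between VGLL2-NCOA2 and YAP5SA (25.8% and 24.1%), and for 1 and 1 between TEAD1-NCOA2 and YAP5SA (19.7% and 35.0%). HLA-E had intervals of -0.29 to 0.25 between the fusions, -0.10 to 0.44 between VGLL2-NCOA2 and YAP5SA and -0.08 to 0.46 between TEAD1-NCOA2 and YAP5SA.

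The scale of the libraries touches each of these differences, since the FPKM sums were lower with the 3 proteins than in control. Scaling each library to the same sum (TPM) moved the median difference of all genes to 0.57, 0.35 and 0.77 for VGLL2-NCOA2, TEAD1-NCOA2 and YAP5SA, and the all-gene calls to 4424 higher and 205 lower, 2575 and 570, and 6201 and 432, against 1005 and 802, 461 and 1039, and 1667 and 1597 on the FPKM scale. On the TPM scale HLA-B differed by -0.06, -0.57 and -0.88 with VGLL2-NCOA2, TEAD1-NCOA2 and YAP5SA (limma adjusted p = 0.663, 0.00179 and 4.34e-05). HLA-C and HLA-E with VGLL2-NCOA2, and HLA-E with YAP5SA, no longer passed on that scale (-0.10, -0.22 and -0.20, limma adjusted p = 0.439, 0.0514 and 0.0642). TAP2 differed by 0.86, 1.14 and 1.56, and the genes called on that scale were TAP2 with TEAD1-NCOA2 and TAP1 (1.02) and TAP2 with YAP5SA, all higher, with no heavy chain called. TAP1, B2M and TAPBP changed sign on the TPM scale in 6 of their 9 comparisons with control. HLA-B and HLA-C with VGLL2-NCOA2 did not pass after quantile normalization either (-0.20 and -0.03, limma adjusted p = 0.291 and 0.842). With trends over gene length and transcript GC content removed, HLA-B and HLA-C with VGLL2-NCOA2 differed by -0.19 and -0.08 (limma adjusted p = 0.273 and 0.650), HLA-C with TEAD1-NCOA2 by -0.14 (0.396) and TAPBP by -0.14, -0.24 and -0.17 with the 3 proteins, none of which passed. HLA-B, HLA-C, HLA-E, B2M and TAPBP were below the median of all genes and TAP2 above it in every comparison with control, under each setting that tested them. TAP2 was not tested with the filter at 5 FPKM. With VGLL2-NCOA2 the smallest margins below the median were -0.01 for HLA-C and -0.02 for B2M. The settings refit the same libraries and are not independent of each other. In bulk libraries fewer cells with a transcript and less of it per cell cannot be told apart.

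**Figure D3:**
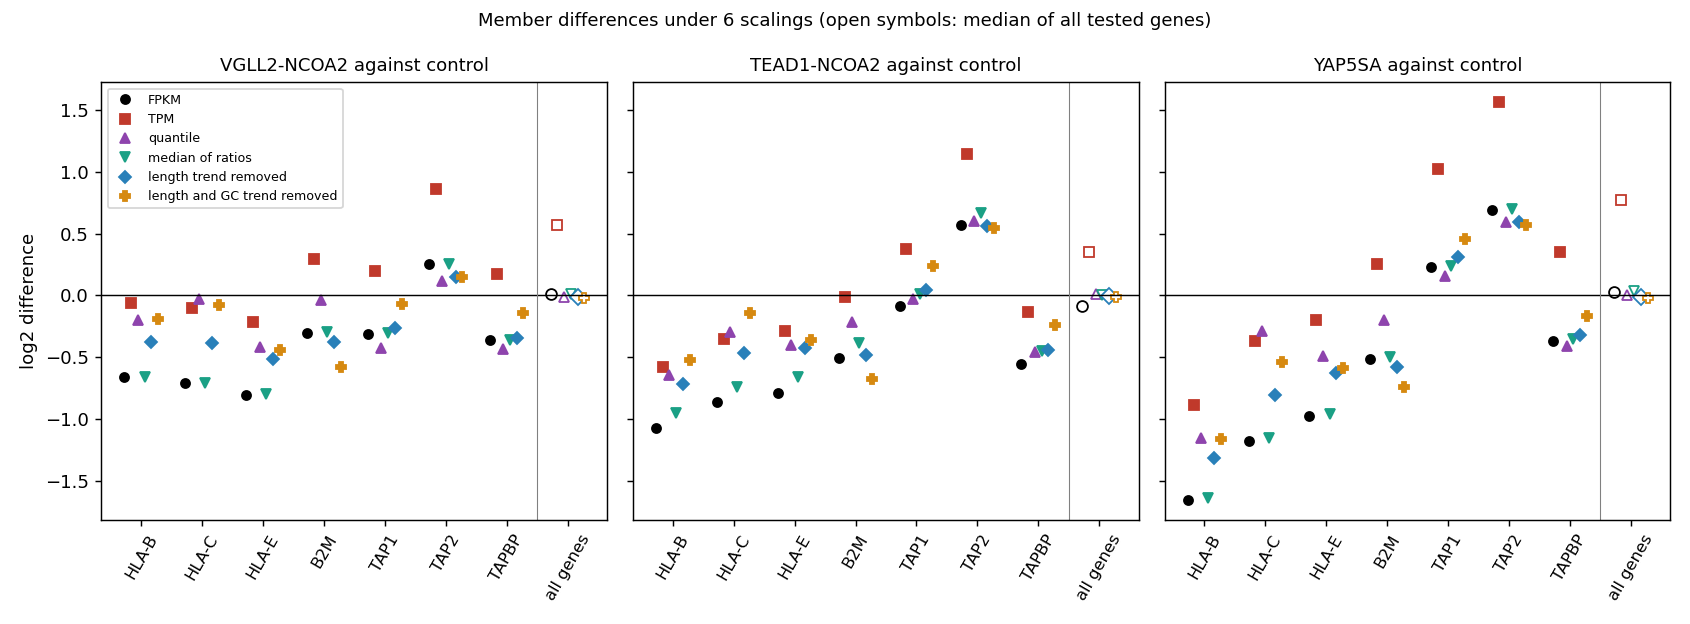
Differences from control (vertical axes, log2) of the 7 tested genes under 6 scalings of the same libraries, 1 panel per protein, with the median of all tested genes as open symbols at the right. On every scaling HLA-B, HLA-C and HLA-E lie below 0 and TAP2 above 0, while the TPM scale moves the median of all genes to 0.57, 0.35 and 0.77.

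In a ratio of 2 genes of the same library any single scaling factor cancels, and such ratios show unequal change of the 2 FPKM values. Trends over gene length or GC content do not cancel. HLA-B (3051 bases, 59.0% GC) and HLA-C (2507, 62.7%) differ in both from TAP2 (6390, 49.1%) and B2M (6079, 40.6%). The part of such trends in the ratios was not tested. HLA-B over TAP2 was 12.9, 12.1 and 13.1 with VGLL2-NCOA2, 6.23, 7.51 and 7.92 with TEAD1-NCOA2, 4.39, 5.16 and 3.40 with YAP5SA and 25.0, 25.6 and 26.8 in control. The 4 groups did not overlap, and the ratio was 0.491, 0.278 and 0.165 times that of control. HLA-C over TAP2 was 0.477, 0.325 and 0.236 times control, and HLA-E over TAP2 was 0.441, 0.340 and 0.267 times. Between the transporter subunits, TAP2 over TAP1 was 1.005, 1.10 and 1.08 with VGLL2-NCOA2, 1.23, 1.11 and 1.10 with TEAD1-NCOA2, 1.02, 1.04 and 0.852 with YAP5SA and 0.727, 0.668 and 0.517 in control, higher than control in 9 of 9 libraries. Between heavy and light chain, HLA-B over B2M was 2.38, 2.07 and 2.11 with VGLL2-NCOA2, 1.71, 2.04 and 1.94 with TEAD1-NCOA2, 1.12, 1.13 and 1.57 with YAP5SA and 2.65, 2.82 and 2.93 in control, again without overlap between any groups. HLA-C over B2M was 0.757, 0.789 and 0.645 times control without overlap with control, but the proteins overlapped each other. HLA-E over B2M was 0.700, 0.824 and 0.728 times control. It overlapped control with YAP5SA (exact permutation p = 0.3), and the proteins again overlapped each other. Every other ratio named here had an exact permutation p of 0.1 against control, 2-sided on log ratios, the smallest possible.

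**Figure D4:**
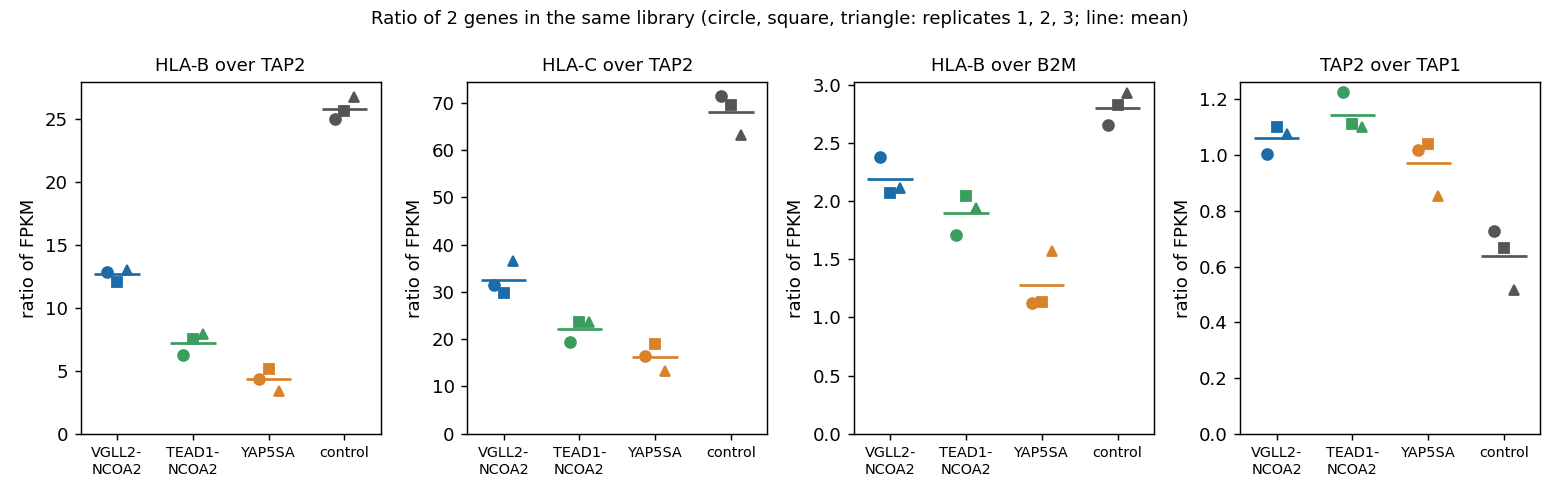
Ratio of the FPKM of 2 genes in the same library (vertical axes, from 0), by group (horizontal axes), with 1 symbol per library and the mean as a line. HLA-B over TAP2 lies at 3.40 to 5.16 with YAP5SA and at 25.0 to 26.8 in control, and TAP2 over TAP1 is higher in every VGLL2-NCOA2, TEAD1-NCOA2 and YAP5SA library than in any control library.

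Within the heavy chains, HLA-B was lower relative to HLA-C with TEAD1-NCOA2 (0.322, 0.316 and 0.336) and YAP5SA (0.267, 0.270 and 0.257) than in control (0.350, 0.369 and 0.423), with an exact permutation p of 0.1 for both. With VGLL2-NCOA2 the ratio was 0.409, 0.407 and 0.358, which overlapped control (exact p = 0.9). HLA-B over HLA-E was 1.11, 0.820 and 0.618 times control with the 3 proteins. In FPKM, HLA-E exceeded HLA-B in 3 of 3 YAP5SA libraries and in none of the other 9. That crossing depends on the lengths used, 3051 bases for HLA-B and 2975 for HLA-E, whose longest annotated transcripts have 1547 and 2601. It does not show which transcript was more abundant. HLA-E over HLA-C overlapped control with each protein (exact p = 0.5, 0.5 and 0.3). The heavy chain genes are paralogs with stretches of similar sequence. Fragments that match more than 1 of them can be split between them in ways that the counting decides. HLA-B and HLA-C also share 35 exon bases on the same strand. HLA-B shares a further 542 exon bases, 17.8% of its exons, with the pseudogene AL671883.2 on the opposite strand, and TAP1 shares 456, 9.49% of its exons, with PSMB8-AS1. Whether the counting used strand is not known.

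Other genes of the pathway moved in both directions. Of all tested genes, 28.9% rose and 25.0% fell with VGLL2-NCOA2, 20.6% and 27.9% with TEAD1-NCOA2, and 32.9% and 30.2% with YAP5SA. The counts of each list below are to be read beside these shares. Of 6 tested genes of peptide loading and trimming, 2 rose and 2 fell with VGLL2-NCOA2, 2 rose and 1 fell with TEAD1-NCOA2, and 2 rose and 2 fell with YAP5SA, none called. The most abundant of them in these libraries, CANX, which codes for the chaperone calnexin that binds new heavy chains, had 167, 168 and 178 FPKM with VGLL2-NCOA2, 196, 217 and 209.8 with TEAD1-NCOA2, 117, 109 and 114 with YAP5SA and 142, 125 and 127 in control. CANX rose with both fusions (0.37 ± 0.10 and 0.65 ± 0.10, limma adjusted p = 0.00721 and 0.000314), and the difference with YAP5SA was -0.21 ± 0.10 (0.0735). A further list held 6 genes of the immunoproteasome, which makes class I peptides after interferon, and of proteasome activation and assembly. Its catalytic subunits PSMB8, PSMB9 and PSMB10 did not pass the filter, which left PSME1, PSME2 and POMP. Of the 3 tested, 1 fell with TEAD1-NCOA2 and 1 with YAP5SA. In both it was PSME1, a subunit of the proteasome activator, at 18.5, 19.2 and 19.6 FPKM with VGLL2-NCOA2, 15.9, 17.9 and 17.0 with TEAD1-NCOA2, 10.9, 12.4 and 3.37 with YAP5SA and 34.8, 40.8 and 25.9 in control (-0.94 ± 0.34 with TEAD1-NCOA2 and -1.95 ± 0.34 with YAP5SA, limma adjusted p = 0.0427 and 0.000571). Without YAP5SA replicate 3 the difference of PSME1 with YAP5SA was -1.44, and without control replicate 3 that with TEAD1-NCOA2 was -1.11.

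Of 4 tested further class I and class I-like heavy chains, 1 fell with VGLL2-NCOA2 (25.0% of all genes) and 2 fell with TEAD1-NCOA2 (27.9%). With YAP5SA 3 fell and 1 rose (30.2% and 32.9%). HLA-F, a non-classical heavy chain, had 4.32, 4.41 and 3.92 FPKM with VGLL2-NCOA2, 1.74, 1.41 and 1.37 with TEAD1-NCOA2, 3.75, 3.35 and 2.02 with YAP5SA and 4.96, 5.92 and 5.07 in control, lowest with TEAD1-NCOA2 (-1.34 ± 0.15, limma adjusted p = 6.60e-05). FCGRT, the heavy chain of the neonatal Fc receptor, which also pairs with B2M, had 7.62, 5.96 and 6.01 FPKM with VGLL2-NCOA2, 7.42, 8.20 and 7.98 with TEAD1-NCOA2, 10.7, 9.97 and 5.42 with YAP5SA and 15.3, 21.0 and 13.8 in control. FCGRT was called lower with VGLL2-NCOA2 (-1.22 ± 0.22, limma adjusted p = 0.000862) and fell with the others (-0.98 ± 0.22 with TEAD1-NCOA2 and -0.90 ± 0.22 with YAP5SA). Without control replicate 3 FCGRT was called with all 3 proteins (-1.34, -1.10 and -1.01 with VGLL2-NCOA2, TEAD1-NCOA2 and YAP5SA). Of 3 tested class I pseudogenes, 1 rose and 1 fell with VGLL2-NCOA2 and with YAP5SA, where HLA-J was called higher (2.83, 1.44 and 1.44 FPKM with YAP5SA, 0.306, 0.246 and 0.536 in control, 1.06 ± 0.20, limma adjusted p = 0.000875), and none with TEAD1-NCOA2. Class II genes, which share the SXY module, had 6 of 9 tested. All 6 fell with TEAD1-NCOA2 (27.9% of all genes), 4 fell with VGLL2-NCOA2 (25.0%), and with YAP5SA 3 fell and 2 rose (30.2% and 32.9%). Their median difference was -0.45, -1.03 and -0.07 with VGLL2-NCOA2, TEAD1-NCOA2 and YAP5SA.

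The class II genes called against control were HLA-DPB1, HLA-DQB1 and HLA-DRB1, which code for beta chains. HLA-DPB1 had 1.35, 1.20 and 1.13 FPKM with VGLL2-NCOA2, 0.0916, 0.205 and 0.107 with TEAD1-NCOA2, 0.730, 1.19 and 0.869 with YAP5SA and 2.13, 3.09 and 1.98 in control (with TEAD1-NCOA2 -1.57 ± 0.14, limma adjusted p = 1.73e-05). HLA-DQB1 had 3.82, 4.20 and 3.76 FPKM with VGLL2-NCOA2, 2.69, 2.94 and 2.92 with TEAD1-NCOA2, 2.97, 2.72 and 1.72 with YAP5SA and 7.55, 8.09 and 7.98 in control, and it was called lower with TEAD1-NCOA2 (-1.20 ± 0.12, limma adjusted p = 3.56e-05) and YAP5SA (-1.37 ± 0.12, 6.69e-06). HLA-DRB1 was called lower with TEAD1-NCOA2 alone (-1.17 ± 0.24, limma adjusted p = 0.00248), at 2.34, 1.76 and 2.59 FPKM with TEAD1-NCOA2 and 7.74, 8.19 and 3.70 in control, and without control replicate 3 it was also called lower with VGLL2-NCOA2 (-1.27, limma adjusted p = 0.000267). CIITA, the class II transactivator, did not pass the filter.

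**Figure D5:**
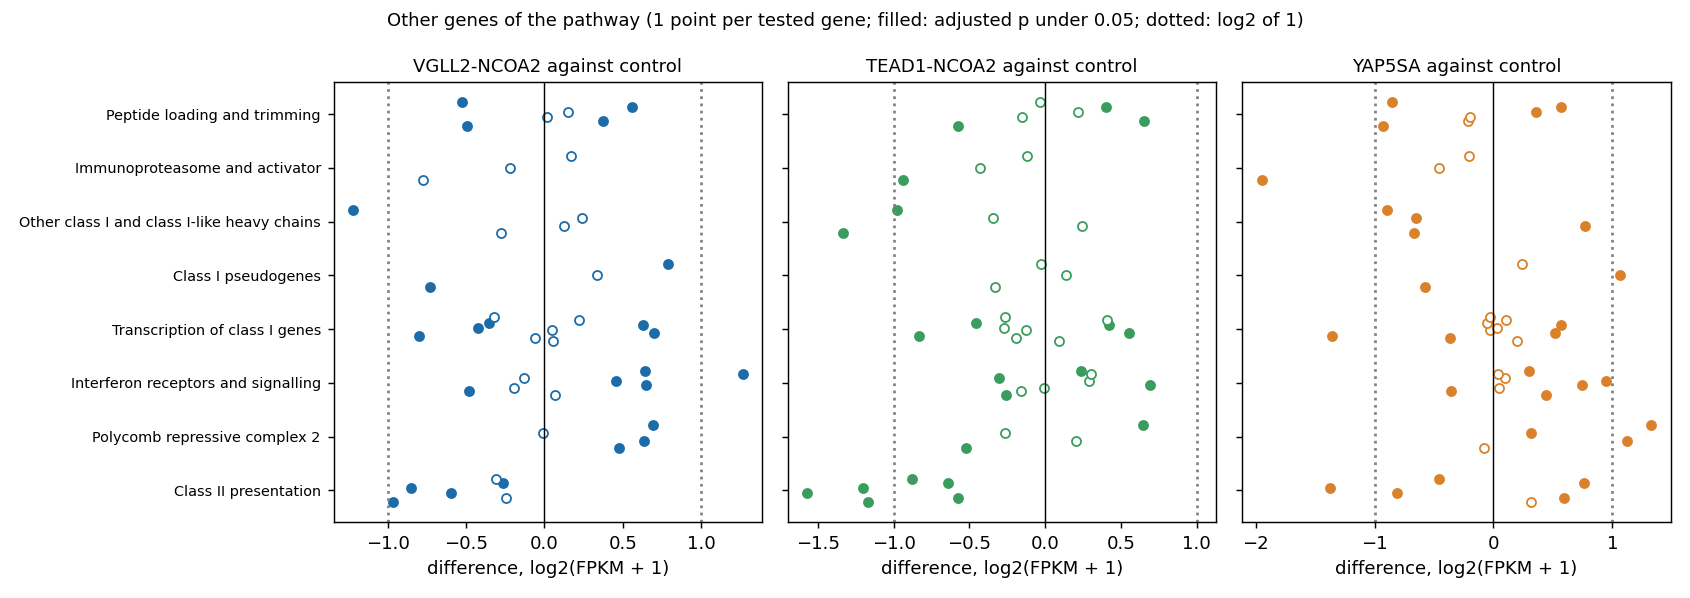
Differences from control on the log2(FPKM + 1) scale (horizontal axes) of the tested genes in 8 lists of other pathway genes (rows), 1 panel per protein, with filled points for an adjusted p under 0.05. Class II genes all lie below 0 with TEAD1-NCOA2, while genes of transcription and interferon signalling lie on both sides of 0 with each protein.

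Among 10 tested genes that transcribe class I genes, 2 rose and 3 fell with VGLL2-NCOA2 (28.9% and 25.0% of all genes). With TEAD1-NCOA2 2 rose and 2 fell (20.6% and 27.9%), and with YAP5SA 2 rose and 2 fell (32.9% and 30.2%). The gene called among them was RFXANK, a subunit of the RFX complex that binds the SXY module together with NLRC5, at 15.0, 14.0 and 11.9 FPKM with VGLL2-NCOA2, 12.7, 13.6 and 13.3 with TEAD1-NCOA2, 11.3, 10.5 and 5.84 with YAP5SA and 23.2, 29.7 and 21.1 in control. RFXANK was lower than control in every library, and called with YAP5SA (-1.36 ± 0.20, limma adjusted p = 0.000197), also without YAP5SA replicate 3 (-1.09). Of 8 tested interferon receptor and signalling genes, 4 rose and 1 fell with VGLL2-NCOA2, 2 rose and 2 fell with TEAD1-NCOA2, and 4 rose and 1 fell with YAP5SA. Polycomb repressive complex 2 can silence class I genes in tumours. Of its 4 genes, 3 rose with VGLL2-NCOA2 (28.9% of all genes) and 3 with YAP5SA (32.9%). With TEAD1-NCOA2, 1 rose and 1 fell (20.6% and 27.9%). EZH2, a catalytic subunit, rose with VGLL2-NCOA2 (0.48 ± 0.09, limma adjusted p = 0.00139) and fell with TEAD1-NCOA2 (-0.52 ± 0.09, 0.000968). Its difference with YAP5SA was -0.08 ± 0.09 (0.476). The part of these genes in the class I differences was not tested. SUZ12 and EZH1, a core subunit and a catalytic subunit, were called higher with YAP5SA, at 18.7, 19.4 and 21.6 FPKM against 9.16, 5.93 and 7.21 in control (1.33 ± 0.12, limma adjusted p = 7.20e-06) and 19.1, 16.1 and 14.6 against 7.87, 7.50 and 5.90 (1.12 ± 0.12, 2.35e-05).

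Class I genes are also high in blood and endothelial cells, so markers of these cells were read in the same libraries. The 8 leukocyte markers summed to 2.71 to 3.57 FPKM with VGLL2-NCOA2, 1.18 to 1.56 with TEAD1-NCOA2, 2.94 to 3.93 with YAP5SA and 1.12 to 1.83 in control, with the defining genes PTPRC and CD3E at or near 0 in each group. CD14 had 1.15, 0.775 and 1.41 FPKM with VGLL2-NCOA2, 0.203, 0.270 and 0.286 with TEAD1-NCOA2, 0.696, 0.815 and 1.34 with YAP5SA and 0.158, 0.212 and 0.0791 in control. The 4 endothelial markers, of which none passed the filter, summed to 0.146 to 0.327 FPKM with VGLL2-NCOA2, 0.0277 to 0.0597 with TEAD1-NCOA2, 0.112 to 0.213 with YAP5SA and 0.223 to 0.379 in control. KDR, the most abundant of them, reached at most 0.304 FPKM. Of 5 fibroblast markers COL1A2 was at 0 in all libraries, and COL1A1 alone was tested and fell with each protein (5.04, 4.68 and 3.97 FPKM with VGLL2-NCOA2, 1.03, 1.34 and 1.19 with TEAD1-NCOA2, 2.31, 2.09 and 2.76 with YAP5SA and 6.90, 6.64 and 10.4 in control). The 9 genes common in this line all passed the filter, among them NEFM, NEFL and VIM, and of these 9 genes 4, 6 and 5 were called lower with VGLL2-NCOA2, TEAD1-NCOA2 and YAP5SA, where 5.03%, 6.51% and 10.0% of all genes were. Without control replicate 3 these counts were 3, 3 and 4. The difference of GATA3, called lower with both fusions, was then -0.52 with VGLL2-NCOA2 and -0.47 with TEAD1-NCOA2, and those of NEFL and VIM with TEAD1-NCOA2 were -0.95 and -0.97, short of a call. The share of FPKM times length on mitochondrial genes moved with the groups too, at 6.18 to 6.56% with VGLL2-NCOA2, 6.25 to 9.83% with TEAD1-NCOA2, 3.60 to 4.64% with YAP5SA and 9.97 to 12.6% in control. The part of these in the class I differences was not tested.

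The genes whose level most resembled each class I gene were sought among 7341 protein-coding genes with a mean of at least 5 FPKM, by Pearson correlation over the 12 libraries, which share groups and scaling. HLA-B was most like MAD2L2 (0.994), PRDX1 (0.992) and ID3 (0.991), HLA-C most like SSNA1 (0.990), FAHD2B (0.987) and METRN (0.986), and HLA-E most like PLD3 (0.994), CSNK1G2 (0.990) and CCT7 (0.989). B2M was most like MRPL52 (0.987), SF3B6 (0.983) and RPL38 (0.980). TAPBP was most like SNRPB2 (0.975), CTBP1 (0.970) and MIS18A (0.968). The transporter genes had weaker partners, LEMD2 (0.966) and MIDN (0.908) for TAP1 and SCD (0.936), RAB32 (0.936) and PAM (0.933) for TAP2. TAP1, TAP2, TAPBP and NLRC5 lay below the mean of 5 FPKM and could not be listed as partners. HLA-B, HLA-C, HLA-E and B2M could be, and none of them was among the 3 genes most like any of the 7.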

How the data were processed

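Total RNA of HEK293T cells was purified and made into mRNA libraries, read from both ends. What the authors deposited are FPKM values in 4 tables, 1 per group, which may have been normalized separately. No aligner, counting tool or strand setting is given in the sources used here. Mouse builds (GRCm38, mm10) stand in the submitters' processing notes, but all 58735 genes matched human GENCODE release 29 (GRCh38) by start and end. Whole fragments were recovered for 9 libraries (100% of low values of up to 20 fragments, within 0.05).

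Genes at 1 FPKM or more in 3 or more of 12 libraries were tested as log2(FPKM + 1), a scale that understates changes of low genes, in limma 3.58.1 (R 4.3.3) with trend, group means over all libraries, 2-sided tests and Benjamini-Hochberg adjustment. The planned count test was not used, since the unit is FPKM. Labels do not say whether libraries came from separate transfections, so p-values measure only the spread between these libraries. The 8 genes and the lists were chosen with earlier results of these data known. Of each list up to 3 genes called against control with the largest difference were named, or else the most abundant, and for each tested gene the 3 most correlated; some genes this rule names are not reported here. On simulated data the fit was checked before use. Alternatives were a pseudocount of 0.1, other filters, TPM, quantile and median-of-ratios scaling, length and GC trends, single comparisons, a replicate block, voom and leaving out libraries. The median-of-ratios, GC and ratio analyses were chosen after seeing the data. Figures were drawn with matplotlib 3.10.9.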

Additional observations from a re-analysis of the deposited data

How the results depend on the processing

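The number of called class I genes was 0, 1 and 2 with VGLL2-NCOA2, TEAD1-NCOA2 and YAP5SA against control. With TEAD1-NCOA2 it was 1 on the TPM scale and 1 by limma-voom, in both with TAP2 higher in place of HLA-B lower, 0 with quantile normalization, 0 with the length trend removed, 0 with the length and GC trends removed, 0 on the median-of-ratios scale, and 2 without control replicate 3 and YAP5SA replicate 3 together. Leaving out single libraries gave 0 to 2 (0 without TEAD1-NCOA2 replicate 1 or control replicate 2, 2 without control replicate 3). With YAP5SA it was 2 on the TPM scale, with TAP1 and TAP2 higher in place of the heavy chains, and 1 (HLA-B) with quantile normalization, with the length trend removed, and with the length and GC trends removed, and 3 with a pseudocount of 0.1. Leaving out single libraries gave 1 to 3, with 1 without YAP5SA replicate 3. Between VGLL2-NCOA2 and YAP5SA, where 0 were called, it was 1 (HLA-B) with a pseudocount of 0.1 and 0 to 1 without single libraries, with 1 without VGLL2-NCOA2 replicate 3, YAP5SA replicate 1 or YAP5SA replicate 2. The causes were not tested.

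Directions reversed on the TPM scale for B2M (0.29), TAP1 (0.20) and TAPBP (0.17) with VGLL2-NCOA2 and for B2M (0.26) and TAPBP (0.35) with YAP5SA. TAP1 with TEAD1-NCOA2 reversed to 0.37 on the TPM scale, 0.048 with the length trend removed, 0.24 with length and GC, 0.15 by limma-voom and 0.012 on the median-of-ratios scale, and TAP2 between TEAD1-NCOA2 and YAP5SA to 0.010 with quantile normalization. Of the other differences of single genes, 423 kept their direction and their side of the adjusted p of 0.05, 33 newly passed it and 48 no longer did.

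With the replicate number as a block the called counts stayed 0, 1 and 2. Correlations between same-numbered libraries of different groups ran from -0.05 to 0.27 over 18 pairs, 3 of them over 0.1. Those between differently numbered libraries ran from -0.29 to 0.19. These values cannot tell whether a replicate number marks a shared batch, and the main fit used no block. With 3 libraries a group no permutation p can fall below 0.1. NLRC5 rests on 22 to 79 fragments a library in the 9 VGLL2-NCOA2, TEAD1-NCOA2 and control libraries.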
